A study of Bos taurus with 8 samples.

Results

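The Hippo pathway and the genes switched on by its effector YAP were followed in granulosa cells of bovine dominant follicles. All probes whose gene symbol in the platform annotation was ANKRD1, CTGF, CYR61, YAP1, WWTR1, TEAD1, LATS1 or LATS2 were taken. Of these 8 genes, 7 carried a named probe, out of 15229 genes named on the array. They had 12 probes, of which 10 passed the minimum mean log2 intensity of 7, and all 7 genes kept at least 1 probe. No probe carried the symbol YAP1, and that gene was not analysed here. CTGF and CYR61 are the array's older symbols for CCN2 and CCN1.

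Granulosa cells line the inner wall of the ovarian follicle, make oestradiol and nourish the oocyte. They were scraped from follicles over 9 mm of Holstein ovaries collected at slaughter, and each follicle was placed in a growth phase from the DNA content of its cells. Total RNA of 4 atretic follicles, in which granulosa cells die and the follicle regresses, was set against that of 4 growing follicles after linear amplification. An atretic and a growing follicle were labelled with Cy5 and Cy3 on the same array and hybridised again with the dyes exchanged, which gave 4 pairs and 8 arrays on 3 slides. The groups shared breed, tissue, cell type, size limit and collection method, and the animals' reproductive status was unknown. Nothing in the labels says that the follicles came from separate animals, and the p-values cover only the spread among these follicles. In such bulk samples fewer cells of a type and less RNA per cell cannot be told apart.

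The Hippo pathway is a kinase cascade in which the MST kinases activate LATS1 and LATS2, and these phosphorylate YAP and its relative TAZ so that both stay out of the nucleus. When the cascade is quiet, YAP and TAZ enter the nucleus, bind the TEAD transcription factors and switch on genes such as CTGF, CYR61 and ANKRD1. In mouse and human ovaries, disturbing this cascade by cutting the tissue is known to stimulate follicle growth.

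Pair 1 stood apart from the other pairs. Across all probes, with or without a gene symbol and also below the intensity minimum, its atretic over growing log2 ratios were compared with those of the others. The Pearson correlation was -0.22 with pair 2, -0.36 with pair 3 and -0.06 with pair 4, against 0.22 to 0.48 among pairs 2 to 4. The dye-swapped arrays of pair 1 correlated at 0.67, within the 0.58 to 0.73 of all pairs. VNN1, the pantetheinase vanin 1, had log2 levels of 10.20, 15.95, 15.96 and 15.81 in atretic follicles (pairs 1 to 4), against 15.96, 9.26, 10.31 and 9.10 in the growing ones, so pair 1 ran opposite to the others. The scanner limit was reached in 4 channels of its probe, so its highest levels may be capped. Whether the follicles of pair 1 carried the right phase label was not tested, and every mean over 4 pairs takes them as labelled. All 12 granulosa markers passed the intensity minimum, but CYP19A1, the aromatase that makes oestradiol, was low throughout pair 2, with a level of 8.80 in its atretic and 7.42 in its growing follicle. Of markers of other cells, the 5 measured for theca summed to intensities of 3663 to 4875 in atretic and 2530 to 4725 in growing follicles, and the 5 of 7 leukocyte markers above the intensity minimum to 848 to 1369 in atretic and 869 to 1594 in growing follicles. The 3 for erythrocytes summed to 447 to 546 in atretic and 455 to 528 in growing follicles. Most of each theca sum was PTCH1, at log2 levels of 11.36 to 11.97 in atretic and 10.48 to 11.77 in growing follicles. CYP17A1, the androgen-making enzyme of theca cells, was highest in the atretic follicle of pair 1, at 9.49, against 7.19 to 7.42 in the other atretic and 7.60 to 9.12 in the growing follicles. By quantitative PCR the authors found it raised in a single atretic sample. They proposed theca contamination and left that sample out of their PCR analysis. The labels do not say whether it was among the follicles on these arrays. Because pair 1 stood apart, the ratio of each gene is also given without it. That choice was made from these same ratios, so p-values and counts without pair 1 are a description and no separate test.

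A gene was represented by its probe of highest mean intensity, its level by the normalised log2 intensity of the follicle over both arrays, and its difference by the mean log2 ratio over the pairs. The test was that of limma against 0, with Benjamini-Hochberg adjustment over all probes. The authors' selection, here called the study's threshold, asks for a fold of at least 1.5 and an unadjusted p under 0.05. It was read from the same fit. At an adjusted p of 0.05, 0 of 7 members passed, as did 0 of 13625 genes (0%), while 2324 of 36295 probes had an unadjusted p under 0.05. At the study's threshold 1 of 7 members passed, LATS2, beside 696 of 13625 genes (5.11%). Atretic and growing levels overlapped for every one of the 7 genes, whereas 3.61% of genes had no overlap. Over the 7 genes the median log2 ratio was 0.24, against 0.01 over all genes.

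**Figure D1:**
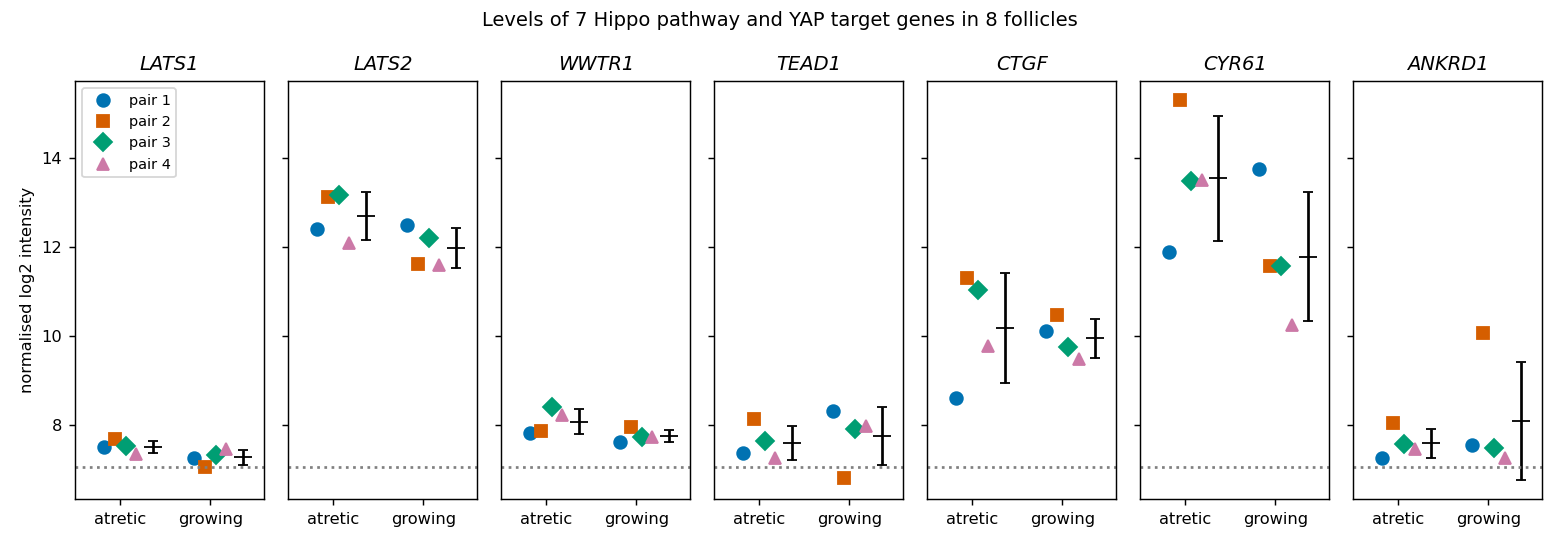
Normalised log2 intensity (vertical axis) of 7 genes in the 4 atretic and 4 growing follicles, with a symbol for each pair, the mean and SD beside each group, and a dotted line at the 95th percentile of the negative controls, 7.06. Atretic and growing follicles overlap in every panel, and LATS1, WWTR1 and TEAD1 lie close to the dotted line.

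LATS2, the kinase that phosphorylates YAP and TAZ and is itself switched on by them, was higher in the atretic follicle in 3 of 4 pairs. Its log2 levels in pairs 1 to 4 were 12.40, 13.13, 13.17 and 12.10 in atretic follicles, against 12.50, 11.62, 12.20 and 11.58 in growing follicles. The atretic follicles of pairs 2 and 3 were above every growing follicle, while those of pairs 1 and 4 lay within the range of the growing ones. The pair ratios were -0.10, 1.51, 0.97 and 0.51, with a mean of 0.72 ± 0.28 (SE, n = 4) and a 95% interval of 0.00 to 1.45. That is a fold of 1.65, with an unadjusted p of 0.0498 and an adjusted p of 0.781 in limma.

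This call lay at the edge of the study's threshold. It ended under 13 of 20 alternatives, among them plain background subtraction, where the unadjusted p was 0.0506 in limma, and the omission of pair 2, 3 or 4. Without pair 1 the log2 ratio of LATS2 was 1.00 ± 0.23 (n = 3, unadjusted p = 0.0105 in limma), and the adjusted p was 0.245.

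A second LATS2 probe gave the same order of pairs. Its levels were 11.32, 13.01, 12.07 and 11.53 in atretic follicles, against 11.63, 10.62, 10.86 and 10.80 in growing follicles. Only the growing follicle of pair 1 entered the range of the atretic ones. The pair ratios were -0.31, 2.40, 1.20 and 0.73, for a mean of 1.00 ± 0.45, with an unadjusted p of 0.075 in limma. The remaining probe was above the negative controls on 2 of 8 arrays for atretic follicles and 1 of 8 for growing follicles, and its ratio was 0.06 ± 0.18. That probe thus lay near background.

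LATS1, the other kinase at this step, was measured close to background. Its brightest probe was above the negative controls on 7 of 8 arrays for atretic follicles and 4 of 8 for growing follicles. Its levels were 7.50, 7.68, 7.52 and 7.34 in atretic follicles, against 7.26, 7.06, 7.32 and 7.47 in growing follicles. The ranges overlapped only through pair 4. The mean log2 ratio was 0.24 ± 0.15 (SE, n = 4, adjusted p = 0.856 in limma), and it was 0.23 without pair 1. The other 2 LATS1 probes pointed the other way, with ratios of -0.18 each, one of them below the intensity minimum and above the controls on no array. No direction can be given for LATS1 from these probes.

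**Figure D2:**
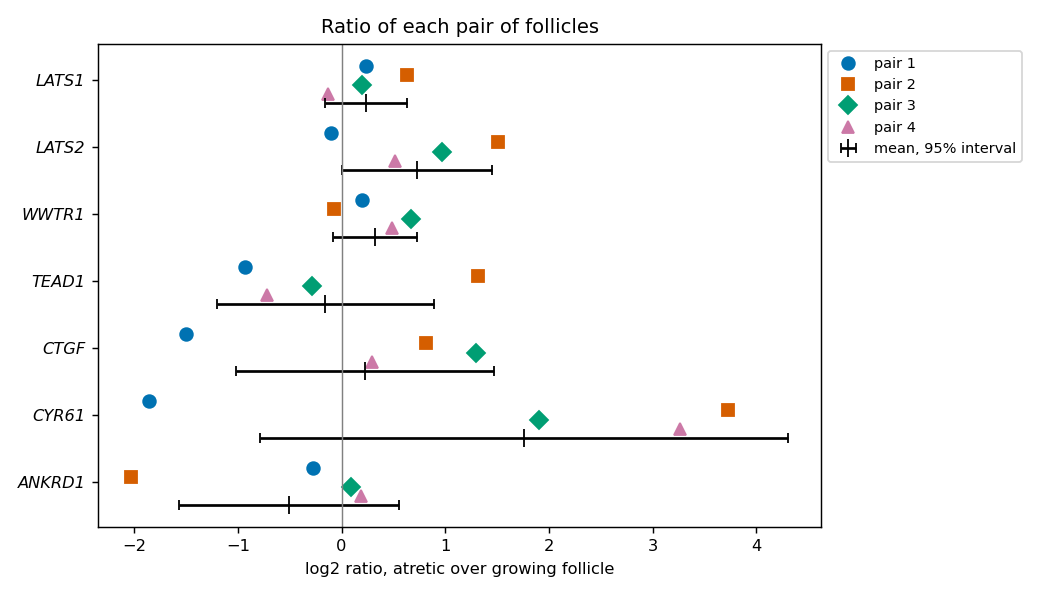
Log2 ratio of atretic over growing follicle (horizontal axis) for 7 genes, with a symbol for each of 4 pairs and a bar for the mean with its 95% interval. CYR61 runs between -1.86 and 3.73, and pair 1 is the only pair below 0 for LATS2, CTGF and CYR61.

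WWTR1 encodes TAZ, the partner of YAP that carries the pathway's output to the nucleus. Its levels in pairs 1 to 4 were 7.81, 7.87, 8.40 and 8.22 in atretic follicles, against 7.61, 7.95, 7.73 and 7.73 in growing follicles. The atretic follicles of pairs 3 and 4 exceeded all growing follicles, and the other atretic follicles fell inside the growing range. The log2 ratio was 0.32 ± 0.16 (SE, n = 4), with a 95% interval of -0.09 to 0.73 and an adjusted p of 0.832 in limma. Without pair 1 it was 0.36. The probe was above the negative controls on all 8 arrays of both phases.

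The sign for WWTR1 turned with the dye. Its ratio was 0.86 over the 4 arrays that had the atretic follicle in Cy5, which shared a slide. Over the 4 arrays of opposite labelling, on the other slides, the ratio was -0.22. All 4 pairs had a higher ratio in the first orientation. For LATS2 the ratios in the same orientations were 0.64 and 0.81, for CTGF 0.29 and 0.16, and for CYR61 1.95 and 1.57. For TEAD1 they were -0.26 and -0.05, for LATS1 0.17 and 0.30, and for ANKRD1 -0.45 and -0.56. These 6 genes kept their sign in both orientations.

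**Figure D3:**
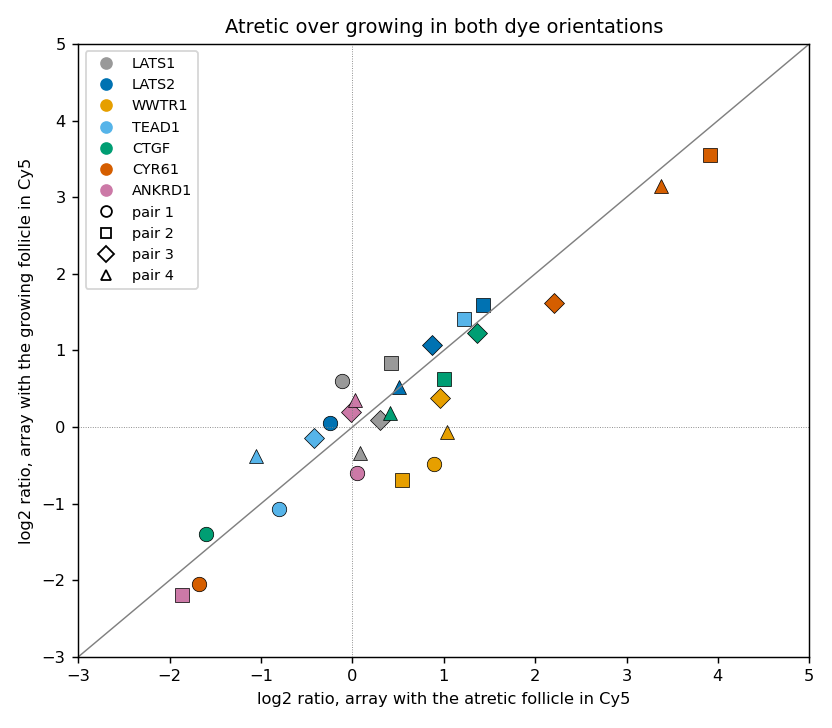
Log2 ratio of atretic over growing on the array whose atretic follicle was in Cy5 (horizontal axis) and on the dye-swapped array of the same pair (vertical axis), for 7 genes and 4 pairs, with a line of equality. CYR61 and CTGF have the same sign on both axes in every pair, whereas all 4 WWTR1 points lie below the line.

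TEAD1 is one of the transcription factors through which YAP and TAZ reach DNA. Its levels were 7.37, 8.12, 7.63 and 7.26 in atretic follicles, against 8.31, 6.81, 7.92 and 7.98 in growing follicles. Pair 2 alone ran upwards, since its growing follicle was the lowest of the 8 and its atretic follicle the highest of the atretic ones. The pair ratios were -0.93, 1.32, -0.28 and -0.72, and their mean was -0.16 ± 0.41 (SE, n = 4, adjusted p = 0.965 in limma).

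The estimate for TEAD1 depended on single pairs. Without pair 2 it was -0.64, with an unadjusted p of 0.0234 in limma, which is past the study's threshold. Without pair 1 it was 0.10 and without pair 4 it was 0.03. The probe was above the negative controls on 7 of 8 arrays for atretic follicles and 6 of 8 for growing follicles, and the other TEAD1 probe was not above them on any array.

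CTGF, a secreted matricellular protein that is a standard readout of YAP activity, differed in sign between pairs. Its levels were 8.61, 11.29, 11.04 and 9.77 in atretic follicles, against 10.11, 10.48, 9.74 and 9.48 in growing follicles. The atretic follicles held both the highest levels, in pairs 2 and 3, and the lowest, in pair 1. The SD was 1.24 among atretic and 0.44 among growing follicles. The pair ratios were -1.50, 0.81, 1.30 and 0.30, with a mean of 0.23 ± 0.48 (SE, n = 4) and a 95% interval of -1.02 to 1.47. The adjusted p was 0.955 in limma.

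Without pair 1 the CTGF ratio was 0.80 ± 0.23 (n = 3, unadjusted p = 0.0225 in limma), past the study's threshold but with an adjusted p of 0.311. Without pair 3 it was -0.13, so neither the size nor the sign was stable to the choice of pairs.

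CYR61, the other matricellular readout of YAP, had the widest ratios of the 7 genes. Its levels in pairs 1 to 4 were 11.88, 15.30, 13.48 and 13.50 in atretic follicles, against 13.74, 11.57, 11.57 and 10.24 in growing follicles. In pairs 2 to 4 every atretic follicle was above every growing one, while the follicles of pair 1 were placed the other way round. The pair ratios were -1.86, 3.73, 1.91 and 3.26. The mean was 1.76 ± 0.99 (SE, n = 4), a fold of 3.39, with a 95% interval of -0.79 to 4.31, an unadjusted p of 0.136 and an adjusted p of 0.841 in limma.

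Both dye orientations of a pair gave a similar CYR61 ratio. In pair 2 it was 3.91 with Cy5 on the atretic follicle and 3.55 after the dye swap, and in pair 1 the ratios were -1.68 and -2.04. No channel of the CYR61 probe was saturated. The SD of its 4 pair ratios, 2.54, stood at percentile 99.3 of all genes, compared with 92.2 for CTGF, 72.6 for LATS2 and 39.7 for LATS1.

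Without pair 1 the CYR61 ratio was 2.96 ± 0.39 (n = 3, unadjusted p = 0.0012 in limma), with an adjusted p of 0.162. In a fit of all 8 arrays with the pair as a random block, the ratio stayed at 1.76 but the unadjusted p was 0.023 in limma, past the study's threshold, with an adjusted p of 0.354. That fit took a single correlation of 0.46 between the arrays of a pair, shared by all probes. It thus counted dye-swapped arrays of the same RNA as partly separate, and its p-value overstates the replication. Without pair 1, LATS2, CTGF and CYR61 passed the study's threshold, 3 of 7 genes, beside 1795 of 13788 genes (13.0%). With all pairs the share was 5.11%. Pair 1 was left out for running against the other pairs in these data, so these calls add no separate support.

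**Figure D4:**
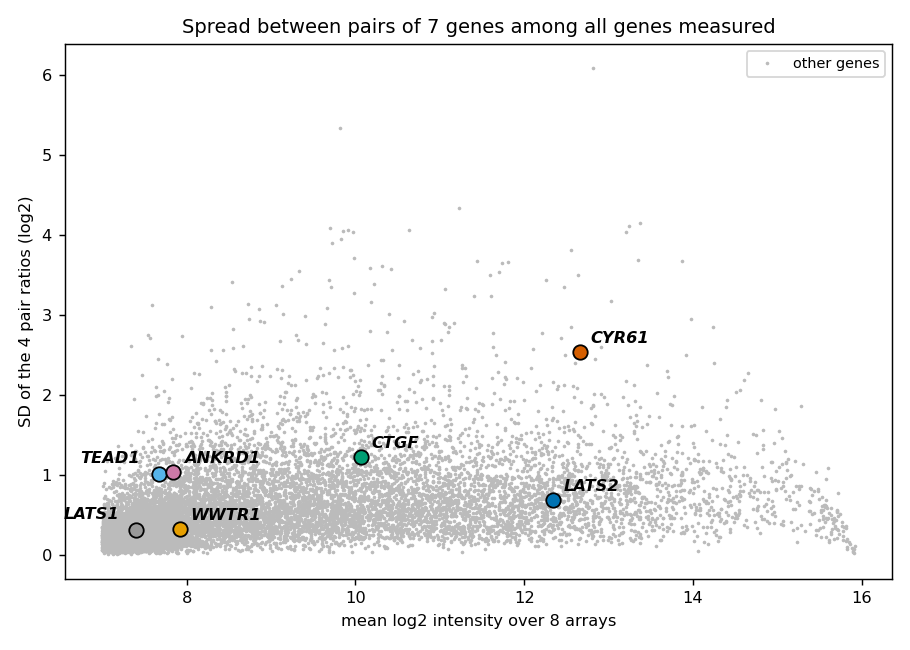
SD of the 4 pair ratios on the log2 scale (vertical axis) against mean log2 intensity over 8 arrays (horizontal axis) for all genes measured, in grey, and for 7 genes, named. CYR61 has an SD of 2.54, in the top of the distribution, and LATS1 and WWTR1 have SDs of 0.31 and 0.33.

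Of the 6 markers of smooth muscle and pericytes, all measured, MYH11 alone had the same sign as CYR61 in every pair. This smooth muscle myosin had pair ratios of -3.76, 4.68, 4.28 and 2.02. The ratios of ACTA2, smooth muscle actin, were -0.29, 0.17, -0.58 and -0.32, and those of CNN1, calponin, were 1.19, -0.42, -1.77 and 0.21, so neither followed CYR61. TAGLN was above the negative controls on 3 of 8 arrays for atretic and 4 of 8 for growing follicles, and DES on 3 and 2 of 8 for atretic and growing follicles. The summed intensity of the list ran from 5267 to 11706 in atretic follicles and from 6696 to 10055 in growing follicles. In the theca, fibroblast, leukocyte and endothelial lists, PTCH1, PDGFRA, CD68 and VWF shared the sign of CYR61 in every pair. CYP17A1, INSL3 and NR2F2 of the theca list and LUM of the fibroblast list had the opposite sign in every pair. The other markers of these lists did neither.

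Markers of several cell types passed the study's threshold without pair 1, as LATS2, CTGF and CYR61 did. Of the 12 granulosa markers, AMH was at -1.68, GJA1 at -1.43, INHA at -1.03 and AMHR2 at 2.05, and the median of the list was -0.64. INHA had channels at the scanner limit, so the size of its ratio is uncertain. Of the other lists, MYH11 was at 3.65, PDGFRA at 1.33, CD68 at 1.08, PTCH1 at 0.74, CYP17A1 at -1.28 and LUM at -1.999. The other markers of these lists did not pass, and 13.0% of all genes did. List medians were 0.06 for smooth muscle and pericytes, -0.83 for fibroblasts, 0.05 for leukocytes and -0.14 for theca. The named markers thus do not stand for their lists. The part of the cell make-up in the ratios of LATS2, CTGF and CYR61 was not tested.

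ANKRD1, a muscle ankyrin repeat protein and an established YAP target, was high in a single follicle. Its levels were 7.26, 8.04, 7.57 and 7.46 in atretic follicles, against 7.54, 10.07, 7.48 and 7.27 in growing follicles. The growing follicle of pair 2 stood 2.03 above its atretic partner, and the other 7 follicles lay between 7.26 and 8.04. The pair ratios were -0.28, -2.03, 0.09 and 0.19, with a mean of -0.51 ± 0.41 (SE, n = 4) and an adjusted p of 0.877 in limma. Without pair 2 the ratio was 0.00, and without pair 1 it was -0.58. ANKRD1 was above the negative controls on 6 of 8 arrays for atretic and 7 of 8 for growing follicles.

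The growing follicle of pair 2 also had the lowest level of the 8 follicles for CYP19A1, 7.42, and for the FSH receptor FSHR, 7.85. Its 12 granulosa markers had the lowest mean log2 level, 10.52, with INHA at 15.97. They summed to an intensity of 122350, against 100460 to 282730 in atretic and 65945 to 279910 in the other growing follicles. INHA and INHBA each reached the scanner limit in 7 channels, so their levels and these sums may be capped. In the same follicle the 6 fibroblast markers summed to 12717, against 4032 to 7621 in atretic follicles and 3754 to 4370 in the other growing follicles. COL1A1, COL1A2 and LUM, but not COL3A1, DCN or PDGFRA, were at their highest in this growing follicle. Its 7 measured endothelial markers summed to 3174, against 1104 to 1878 in atretic follicles and 1054 to 2351 in the other growing follicles. Most of that sum was KDR, at a log2 level of 11.03, whereas CDH5, at 7.38, was lower than in the other growing follicles. PECAM1 was above the negative controls on 0 of 8 arrays for atretic and 1 of 8 for growing follicles. The part of such cells in the ANKRD1 level was not tested.

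Of the 3 targets, CTGF and ANKRD1 were alike in rank order over the 8 follicles, whereas CYR61 and ANKRD1 were not. As a description over follicles that share arrays in pairs, Pearson's r was 0.64 between CTGF and CYR61, 0.41 between CTGF and ANKRD1 and -0.05 between CYR61 and ANKRD1, with Spearman's rho of 0.55, 0.90 and 0.26. The highest r among the 7 genes was 0.80, between CYR61 and LATS2, with a rho of 0.74. For CTGF and ANKRD1 the rank correlation was thus higher than the linear one, and it was the highest rho among the 7 genes. The growing follicle of pair 2, which alone was high for ANKRD1, was below the atretic follicles of pairs 2 and 3 for CTGF. In the other follicles ANKRD1 lay between 7.26 and 8.04, not far above the 7.06 of the negative controls, so its ranks there rest on faint signal. The highest rho was picked from all pairings of the 7 genes, and how often other genes reach it was not tested.

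Among 13618 other genes, those with levels most like CYR61 over the 8 follicles were PPP1R12C, UBA7 and IFIH1, each with r = 0.98. PPP1R12C encodes a regulatory subunit of myosin phosphatase, UBA7 the enzyme that activates the ubiquitin-like protein ISG15, and IFIH1 a sensor of double-stranded RNA. UBA7 had pair levels of 9.95, 11.90, 10.89 and 10.77 in atretic follicles, against 10.84, 10.10, 9.69 and 8.62 in growing follicles. As for CYR61, its pair 1 was reversed, but UBA7 was picked for its likeness to CYR61 over these same follicles, so this is no separate observation.

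The genes most like ANKRD1 were PLEKHA6, SGK1 and TM4SF1, with r of 0.997, 0.996 and 0.992. SGK1 is a kinase induced by serum and glucocorticoids. Its levels were 7.02, 8.50, 7.60 and 7.49 in atretic follicles, against 7.91, 11.63, 7.39 and 7.197 in growing follicles. The likeness rests on the growing follicle of pair 2, which was the highest for all 3 genes. The genes most like CTGF were BCAR4, TOP3A, a DNA topoisomerase, and TNS4, a focal adhesion protein, with r of 0.97, 0.96 and 0.96.

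The wider pathway was read from lists written from general knowledge. Of 35 kinases and regulators of the cascade, 31 were measured, 17 with a higher and 14 with a lower mean in atretic follicles. The median log2 ratio was 0.04, against 0.01 over all genes. LATS2 and SIK2 passed the study's threshold upwards and none passed downwards, 2 of 31 beside 5.11% of all genes. SIK2, a salt-inducible kinase whose fly relative acts against the cascade, had levels of 7.97 to 8.67 in atretic follicles, against 6.68 to 7.66 in growing follicles. The phases did not overlap, and the ratio was 1.01 ± 0.22 (SE, n = 4, adjusted p = 0.716 in limma), with signal above the negative controls on 8 of 8 arrays for atretic and 3 of 8 for growing follicles.

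The lowest ratio of that list was that of STRN3, -0.55 ± 0.28, a striatin of the phosphatase complex that opposes the MST kinases. STRN3 was lower in the atretic follicle in pairs 1, 2 and 4.

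Of 9 genes for YAP, TAZ, the TEAD factors and their VGLL cofactors, 8 were measured, 4 with a higher and 4 with a lower mean, and none passed the study's threshold. Their median ratio was 0.03. The highest was VGLL1, with a ratio of 0.37 and above the negative controls on 6 of 8 arrays for atretic follicles and 0 of 8 for growing follicles, without overlap between the phases. The lowest was VGLL4, which competes with YAP for TEAD factors, at -0.39.

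Of 22 YAP and TAZ targets, 17 were measured, 10 with a higher and 7 with a lower mean, and LATS2 alone passed the study's threshold. The median ratio was 0.02. Several targets had wide and opposed pair ratios, as CYR61 had. GADD45A, a growth arrest gene, had ratios of -5.00, 4.10, 3.08 and 1.49 in pairs 1 to 4, and the membrane repair gene MYOF had -1.51, 1.13, 2.72 and 2.69. NT5E, the ectonucleotidase CD73, ran the other way in 3 pairs, at 4.18, -5.13 and -2.45 in pairs 1 to 3 and 0.95 in pair 4, and had the lowest mean of the list, -0.61. It turned to 0.90 without pair 2.

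Without pair 1, 5 targets passed the study's threshold upwards and none downwards, 5 of 18 measured, beside 13.0% of all genes. They were CYR61, GADD45A at 2.88, MYOF at 2.18, LATS2 and CTGF. The median over the 17 targets measured with all pairs was 0.06 without pair 1, and 0.19 with NUAK2, which passed the intensity minimum only without that pair. Of the regulators, DCHS1, a protocadherin upstream of the cascade, joined LATS2 and SIK2 with a ratio of 1.04. That made 3 of 31 regulators measured, which is below the 13.0% of all genes. Which pairs entered thus set how many targets passed. Targets and regulators both hold LATS2, and its count in each list comes from 1 gene.

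Of the 6 genes of the CCN family of matricellular proteins, to which CTGF and CYR61 belong, 4 were measured. All 4 had a higher mean in atretic follicles over the 4 pairs, beside 7131 of 13625 genes, and none passed the study's threshold. CTGF turned without pair 3 and WISP2 on the arrays with Cy5 on the growing follicle. NOV was at 0.41 and WISP2 at 0.24, both named after their values were seen. WISP2 was above 0 in all 4 pairs, but it was above the negative controls on 7 of 8 arrays for atretic and 4 of 8 for growing follicles. CTGF, CYR61 and NOV were below 0 in pair 1.

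**Figure D5:**
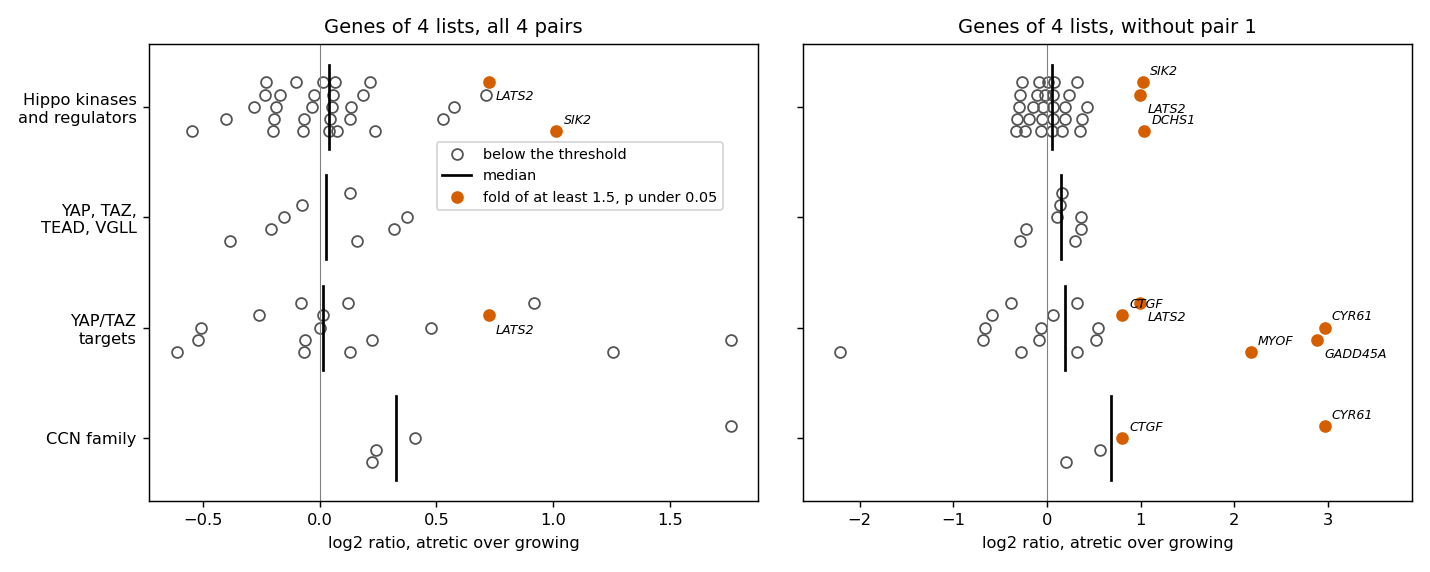
Log2 ratio of atretic over growing (horizontal axis) for each measured gene of 4 lists, over all 4 pairs on the left and without pair 1 on the right, with a bar at the median of each list and filled points past the study's threshold. With all pairs only LATS2 and SIK2 are filled, and without pair 1 the filled points include CYR61, CTGF, GADD45A, MYOF and DCHS1.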

How the data were processed

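The authors deposited scanner intensity values, given without correction as median pixels for spots and for the local background around them. Their deposited processed values, log2 ratios (Cy5 over Cy3) normalised by background subtraction, loess and quantiles, served as an alternative. Their direction and scale were checked against the intensities. Here intensities were corrected by normexp with an offset of 50, normalised by loess within and quantiles between arrays, and turned to read atretic over growing. Dye-swapped arrays share their RNA and were averaged, leaving n = 4 pairs. The pair numbers come from the array positions in the labels, and each of the 8 arrays correlated best with its own number. Of 43794 probes, 36295 passed a mean log2 intensity of at least 7. limma 3.58.1 in R 4.3.3 gave two-sided tests with Benjamini-Hochberg adjustment, and the script was tested on simulated data. Detection used the 95th percentile of 153 negative controls in each array and channel. The number of arrays limits the precision. Named were the 8 genes, list genes past the study's threshold, the highest and lowest of each list, and the 3 genes most like each target. The members and lists were chosen with earlier results of these data known. Of the lists, 3 genes were matched by older symbols. Alternatives changed background correction, normalisation, intensity minimum, model, dye orientation, probe and pairs. No genome positions or sequences are given.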

Additional observations from a re-analysis of the deposited data

Results flagged for a closer look

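ANKRD1 had a log2 level of 10.07 in the growing follicle of pair 2, far above the 7.27 to 7.54 of the other growing follicles. The gap was 0.903 of the range of the group. LATS1, by its probe below the intensity minimum, had a level of 6.56 in the atretic follicle of pair 2, below the 6.85 to 6.91 of the other atretic follicles, with a gap of 0.84 of the range. That probe was not above the negative controls on any array. Of 36 groups of 4 values examined, these 2 had a sample so far from the rest, and chance gives about 1 in 20 for separate groups. The groups share follicles and genes, so that rate is only a rough guide.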

How the results depend on the processing

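The number of probes past an adjusted p of 0.05 was 0, and became 21 with the pair as a replicate block and 17 with the replicate block and a dye term. Both blocks count dye-swapped arrays of the same RNA as partly separate. At the study's threshold 1275 probes became 2243 and 2161 under these blocks, 2569 with the atretic follicle in Cy5 only, 2190 with the growing follicle in Cy5 only, and 796 (without pair 4) to 3404 (without pair 1) with a pair left out. Centring arrays on their median alone gave 72.8% of these probes higher in atretic follicles, against 51.5% in the reported fit. The 1 member past the study's threshold became 0 with plain background subtraction, no background correction, loess only, Aquantile, a minimum of 8, the processed values or an intensity trend, 2 with either block, and 0 to 3 with a pair left out.

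LATS2 lost its call with a ratio of 0.72 under plain subtraction, processed values, a minimum of 8 and an intensity trend, 0.71 without background correction, 0.61 with loess only and with Aquantile, and 0.64 with the atretic follicle in Cy5 only. By its other probes it was 1.00 and 0.061, and with a pair left out 0.46 to 1.00. CYR61 passed at 1.76 with either block, and ran from 1.10 to 2.96 with a pair left out. WWTR1 passed at 0.86 with the atretic follicle in Cy5 and turned to -0.22 with the growing follicle in Cy5, where WISP2 turned to -0.16 as well. The other TEAD1 probe gave 0.088, and the other LATS1 probes -0.18 each. With a pair left out, TEAD1 ran from -0.64 to 0.10, CTGF from -0.13 to 0.80, ANKRD1 from -0.75 to 0.00058, NT5E from -2.20 to 0.90 and GADD45A from -0.14 to 2.88. With a minimum of 8 the list medians became -0.065 for regulators, -0.23 for YAP, TAZ, TEAD and VGLL, 0.23 for targets and 0.99 for the CCN family, over fewer genes, and LATS1, WWTR1, TEAD1 and ANKRD1 were no longer tested. The causes of these changes were not tested. Signal near background limits LATS1, TEAD1 and ANKRD1.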
